A study of Mus musculus with 18 samples.

Results

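Nascent RNA of 10 genes of glycolysis was followed through mouse red cell formation in the fetal liver. The genes were Hk1 and Hk2 (hexokinases), Gpi1 (glucose-6-phosphate isomerase), Pfkl and Pfkm (phosphofructokinases), Aldoa (aldolase), Gapdh (glyceraldehyde-3-phosphate dehydrogenase), Pgk1 (phosphoglycerate kinase), Bpgm (bisphosphoglycerate mutase) and Pklr (the pyruvate kinase gene used in liver and red cells). They were taken by symbol from a count table of 54232 genes, and all 10 had enough counts to be tested. Together they held between 0.112% and 0.267% of the counts of a library.

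The table has 18 libraries of C57BL/6 fetal liver cells taken at e12.5 to e13.5, with 3 replicates of each of 6 sorted populations. The 5 erythroid populations were negative for lineage markers and were sorted by CD71, the transferrin receptor, and Ter119, a surface marker of maturing red cells: S0-Low (CD71-, Ter119-), S0-Medium (CD71 medium, Ter119-), S1 (CD71 high, Ter119-), S2 (CD71 high, Ter119 medium) and S3 (both high). The sixth population, Lin+, carried the lineage markers. All cells rested for 6 h after the sort and then took up 500 µM 4-thiouridine (4sU) for 45 min, so that RNA made in that time could be pulled out and sequenced (4sU-seq). The labels give the same cell type, primary erythroblasts, for Lin+ too, but the marker genes did not match it there: the summed level of 7 erythroid markers was 6824 to 8629 normalized counts in Lin+, 13252 to 27264 in S0-Low and 849189 to 1430968 in S3. The neutrophil granule gene Mpo was at 60671 to 144646 in Lin+, at 10429 to 23663 in S0-Low and at 0 to 36.0 in S3. The authors describe S0-Low as blood stem and progenitor cells together with burst-forming erythroid progenitors. The summed level of 4 stem and progenitor markers was 25372 to 33624 in S0-Low and 1.84 to 339 in S3. Here "normalized counts" are counts scaled by TMM to the mean effective library size of the 18 libraries.

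Total counts ran from 9452476 to 40567976 per library, the lowest being replicate 3 of S0-Low. Replicate 3 lay furthest toward the S3 end of the first principal component (52.5% of the variance) within each of the 5 erythroid populations, and it was the lowest of its population for Hk1, Gpi1, Aldoa, Gapdh and Pgk1 in 6 of 6 populations. Counts of members called without replicate 3 are given with the comparisons. Nothing in the labels says that replicates came from separate litters or sorts, so the p-values measure the spread between these libraries. In bulk libraries such as these, fewer cells making an RNA and less of it made per cell cannot be told apart.

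Glycolysis splits glucose into pyruvate and yields ATP, and mature red cells, which have no mitochondria, live on it alone. Several of its steps are run by isozymes from separate genes, and the red cell is known for using Hk1, Pfkl with Pfkm, and the red cell form of Pklr. Bpgm diverts an intermediate of the pathway into 2,3-bisphosphoglycerate, which binds haemoglobin and lowers its hold on oxygen.

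The promoters of the genes with the largest rises and of the 2 hexokinase genes are printed because these genes moved in different directions. Each runs from 250 bases before to 50 bases after a RefSeq start site (GRCm38.p6), read 5′ to 3′ on the gene's strand, with capitals marking the motifs searched on both strands: AGATAA and TGATAA (forms of the GATA motif), CCNCNCCC (the KLF1 motif), and TACGTG and GACGTG (forms of the hypoxia response element).

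Pklr, upstream start (chr3:89135892-89136191, + strand): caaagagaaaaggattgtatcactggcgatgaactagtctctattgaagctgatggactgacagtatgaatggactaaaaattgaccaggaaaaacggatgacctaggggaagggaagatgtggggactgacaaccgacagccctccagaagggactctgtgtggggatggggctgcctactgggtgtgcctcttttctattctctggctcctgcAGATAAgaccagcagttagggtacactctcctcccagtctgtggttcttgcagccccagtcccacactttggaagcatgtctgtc
Bpgm (chr6:34476106-34476405, + strand): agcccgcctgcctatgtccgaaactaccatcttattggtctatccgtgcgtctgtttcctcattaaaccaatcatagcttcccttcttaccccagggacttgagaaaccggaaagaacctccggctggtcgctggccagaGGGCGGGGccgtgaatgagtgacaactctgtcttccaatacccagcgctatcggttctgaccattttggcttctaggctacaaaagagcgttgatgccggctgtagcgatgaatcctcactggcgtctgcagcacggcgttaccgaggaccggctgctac
Hk1, upstream start (chr10:62379859-62380158, - strand): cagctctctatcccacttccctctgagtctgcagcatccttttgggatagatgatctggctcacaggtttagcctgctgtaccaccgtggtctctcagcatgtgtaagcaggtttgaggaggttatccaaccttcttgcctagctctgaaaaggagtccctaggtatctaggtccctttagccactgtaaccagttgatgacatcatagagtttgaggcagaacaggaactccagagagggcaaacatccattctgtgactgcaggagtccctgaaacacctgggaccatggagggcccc
Hk1, downstream start (chr10:62340372-62340671, - strand): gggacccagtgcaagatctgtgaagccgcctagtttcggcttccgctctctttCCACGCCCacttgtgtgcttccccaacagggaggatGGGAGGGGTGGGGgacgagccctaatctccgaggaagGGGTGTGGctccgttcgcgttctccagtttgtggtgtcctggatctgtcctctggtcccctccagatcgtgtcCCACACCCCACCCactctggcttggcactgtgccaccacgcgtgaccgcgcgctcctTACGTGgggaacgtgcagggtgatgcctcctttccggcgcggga
Hk2 (chr6:82774405-82774704, - strand): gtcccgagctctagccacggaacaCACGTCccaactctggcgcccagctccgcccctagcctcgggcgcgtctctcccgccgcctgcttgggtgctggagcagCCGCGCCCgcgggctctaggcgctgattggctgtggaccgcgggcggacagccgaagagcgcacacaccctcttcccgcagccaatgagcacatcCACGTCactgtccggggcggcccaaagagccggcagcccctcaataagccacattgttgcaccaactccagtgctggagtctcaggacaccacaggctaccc

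The upstream Pklr window held 1 AGATAA, which starts 35 bases before the start site, and the window of its other start held none of the 5 motifs. AGATAA or TGATAA stood in 18.6% of 32851 RefSeq promoters of this length. Bpgm held 1 CCNCNCCC, 110 bases before its start, a motif present in 49.5% of promoters. The downstream Hk1 window held 6 matches to CCNCNCCC, some of them overlapping, and 1 TACGTG, while the upstream one held no match. Hk2 held 2 GACGTG and 1 CCNCNCCC, and TACGTG or GACGTG stood in 9.35% of promoters. Among the members whose promoters are not printed, TACGTG or GACGTG also stood in windows of Aldoa, Gapdh and Pgk1. AGATAA or TGATAA stood in windows of Pfkm and Aldoa, and CCNCNCCC in a window of every member not printed. These are matches of letters in a window, not binding sites.

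Between S0-Low and S3, 4 of the 10 genes rose (Hk1, Pfkl, Bpgm, Pklr) and 4 fell (Hk2, Gpi1, Aldoa, Gapdh), while Pfkm and Pgk1 did not pass the test. Bpgm rose by far the most of the 10 and Hk2 had the largest fitted fall. In edgeR's quasi-likelihood test, with p-values adjusted over 16555 genes, 13.4% of all tested genes passed an adjusted p of 0.05 with higher counts in S3, and 22.4% passed it with lower counts. The median log2 fold change of the 10 genes was -0.66, beside -0.54 for all tested genes. With libraries scaled by their totals the median of all genes was -1.36, and Hk1 and Pfkl no longer passed the test. Without replicate 3, 3 genes rose (Hk1, Bpgm, Pklr) and 5 fell, Pgk1 being the added one, beside 13.7% and 24.0% of all genes in that fit.

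**Figure D1:**
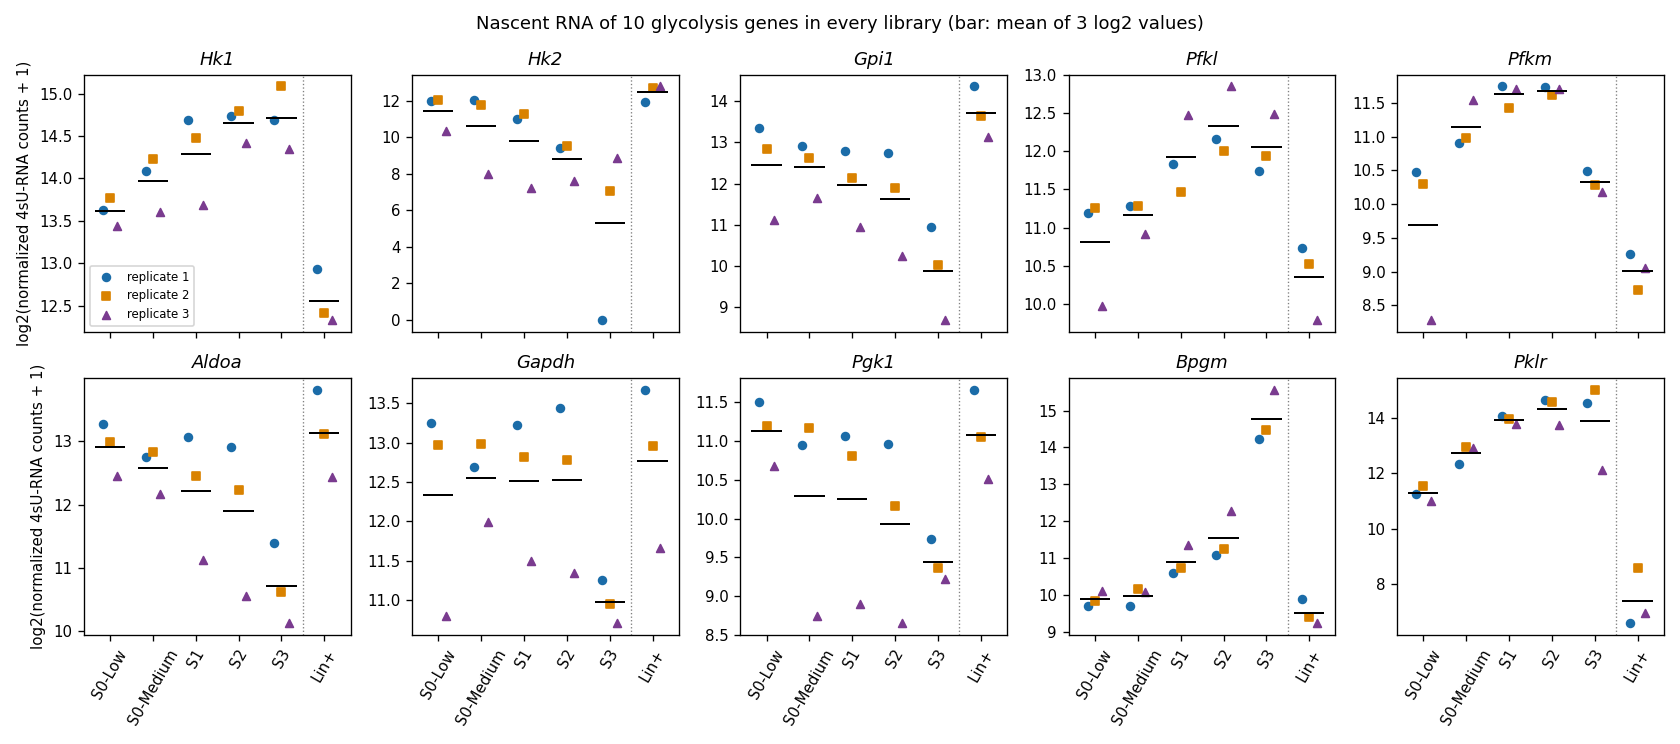
Each panel plots the log2 of normalized 4sU-RNA counts plus 1 (y axis) in the 3 libraries of each population (x axis), with 1 marker shape per replicate number and a bar at the mean of the 3 log2 values. Bpgm climbs to 19326 to 48366 normalized counts in S3, the means of Hk1 and Pklr are higher in S1, S2 and S3 than in S0-Low, with S3 replicate 3 low for Pklr, Pfkm is highest in S1 and S2, and Hk2, Gpi1 and Aldoa decline toward S3.

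The hexokinases trap glucose in the cell as glucose-6-phosphate. Hk1 (ENSMUSG00000037012, chr10:62268855-62379920), the widely used form, was at 12675, 13970 and 11095 normalized counts in the 3 S0-Low libraries, at 27405, 28375 and 21954 in S2, and at 26503, 34760 and 20787 in S3. Every S3 library was above every S0-Low library. Hk1 rose 2.17-fold between these populations, a log2 fold change of 1.12 ± 0.31 (SE), with an edgeR adjusted p of 0.0124. With library totals the log2 difference was 0.30 and the adjusted p 0.446. Without S3 replicate 2 the adjusted p was 0.054. Means stepped from 12580 in S0-Low through 16326, 20822 and 25911 to 27350 in S3, and the ranges of neighbouring erythroid populations overlapped at each of these steps.

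Hk2 (ENSMUSG00000000628, chr6:82725025-82774454), a hexokinase typical of muscle and of fast-growing cells, went the other way. It was at 3960, 4208 and 1307 normalized counts in S0-Low, at 670, 725 and 192.3 in S2, and at 0, 131.2 and 456 in S3. S3 replicate 3, the highest of its population, was still below every S0-Low library, although it was above replicate 3 of S0-Medium, S1 and S2 (253.4, 145.3 and 192.3). The fitted log2 fold change was -4.01 ± 1.35, with an adjusted p of 0.0308, and the mean was 16.1-fold higher in S0-Low than in S3. Without 1 library the fitted value ran from -5.56 (without S3 replicate 3) to -3.44 (without S3 replicate 1). The adjusted p was above 0.05 without S0-Low replicate 1 (0.0599), without S0-Low replicate 2 (0.0636) and without S3 replicate 2 (0.0843). It was 0.0539 with only the 6 libraries compared.

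Gpi1 (ENSMUSG00000036427, chr7:34201327-34230336) turns glucose-6-phosphate into fructose-6-phosphate. It fell from 10453, 7340 and 2234 normalized counts in S0-Low to 1991, 1042 and 414 in S3. The groups did not overlap, but in each population replicate 3 was the lowest. The log2 fold change was -2.54 ± 0.72 (edgeR adjusted p = 0.0136). Without S3 replicate 3 it was -2.15 (adjusted p = 0.0512), and without S3 replicate 1 it was -3.21 (adjusted p = 0.0113).

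The phosphofructokinases commit sugar to glycolysis, and the red cell enzyme is known to be built of liver-type (Pfkl) and muscle-type (Pfkm) subunits. Pfkl (ENSMUSG00000020277, chr10:77986947-78009807) was at 2333, 2456 and 1004 normalized counts in S0-Low, at 4568, 4108 and 7373 in S2, and at 3410, 3923 and 5752 in S3. All libraries of S1, S2 and S3 were above all of S0-Low and S0-Medium. Its log2 fold change between S0-Low and S3 was 1.17 ± 0.39 (edgeR adjusted p = 0.0291). The call did not hold without S0-Low replicate 3, where the value was 0.82 (adjusted p = 0.111), nor without S0-Low replicate 1 (0.0512) or S3 replicate 3 (0.115). With library totals the value was 0.32 (adjusted p = 0.472), and without replicate 3 in every population it was 0.61 (adjusted p = 0.054).

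Pfkm (ENSMUSG00000033065, chr15:98092589-98132447) had a peak in the middle of the series. It was at 1427, 1260 and 311 normalized counts in S0-Low, at 3429, 2763 and 3356 in S1, at 3405, 3138 and 3329 in S2, and at 1441, 1251 and 1160 in S3. The S2 libraries lay above every S0-Low and every S3 library, whereas S0-Low and S3 overlapped. Pfkm was higher in S2 than in S0-Low by a log2 fold change of 1.71 ± 0.43 (edgeR adjusted p = 0.02). The adjusted p was 0.0525 without S2 replicate 3 and 0.0843 with only the 6 libraries compared, and the value was 1.19 without S0-Low replicate 3. From S2 to S3 the value was -1.35 ± 0.43 (adjusted p = 0.0602), and with the replicate number as a block it was -1.36 (adjusted p = 0.0343).

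Aldoa (ENSMUSG00000030695, chr7:126795234-126800994), which splits fructose-1,6-bisphosphate, fell from 9936, 8164 and 5607 normalized counts in S0-Low to 2686, 1569 and 1118 in S3. The groups did not overlap. The log2 fold change was -2.14 ± 0.56 (edgeR adjusted p = 0.00854), and Aldoa passed the test in each of the alternatives tried for this comparison.

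Gapdh (ENSMUSG00000057666, chr6:125161852-125166467), which makes NADH and 1,3-bisphosphoglycerate, was at 9744, 8046 and 1774 in S0-Low and at 2444, 1977 and 1667 in S3. S0-Low replicate 3 lay within the S3 range, so the groups overlapped. Means stayed between 6241 and 6920 from S0-Low to S2 and then dropped to 2029. The log2 fold change from S0-Low to S3 was -1.69 ± 0.60 (edgeR adjusted p = 0.0397), and the adjusted p was above 0.05 when any 1 was left out of S0-Low replicates 1 and 2 and S3 replicates 1, 2 and 3 (0.0658 to 0.127). Gapdh also shares 51.8% of its 31-base stretches with other genes, 71 of which share at least 100. Those listed in the count table held a median of 7.94% of the Gapdh count per library and at most 37.1%, so part of its count is uncertain.

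Pgk1 (ENSMUSG00000062070, chrX:106187100-106203699), the first step of glycolysis that makes ATP, was at 2909, 2345 and 1642 in S0-Low and at 853, 660 and 597 in S3. The groups did not overlap, and the log2 difference was -1.71 ± 0.67 with an edgeR adjusted p of 0.0559. The adjusted p was 0.0445 with all 18 libraries in the fit, 0.0427 with RLE factors, 0.00908 with library totals and 0.0207 with DESeq2. With the replicate number as a block the value was -1.64 (edgeR adjusted p = 0.00834). The adjusted p was above 0.05 in each of the 6 fits that left out 1 library (0.0521 to 0.131). Pgk1 shares 54.6% of its 31-base stretches with 2 processed copies, whose counts were at most 0.308% of its own in any library.

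Bpgm (ENSMUSG00000038871, chr6:34476356-34505136) was at 836, 914 and 1092 normalized counts in the S0-Low libraries and at 829, 1131 and 1079 in those of S0-Medium. It was at 1530, 1685 and 2620 in S1, reached 2158, 2425 and 4922 in S2, and stood at 19326, 22781 and 48366 in S3. S3 stood apart from every other library, with no overlap, and replicate 3 was the highest of its population in S0-Low, S1, S2 and S3. Bpgm rose 31.8-fold from S0-Low to S3 (log2 fold change 4.99 ± 0.46, edgeR adjusted p = 3.92e-06) and passed the test in every alternative tried for this comparison. None of its 31-base stretches was shared with another gene.

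Pklr (ENSMUSG00000041237, chr3:89136122-89146815) rose earlier. It was at 2424, 3019 and 2072 normalized counts in the S0-Low libraries and at 5232, 7958 and 7728 in those of S0-Medium. S1 held 17438, 16000 and 14088, S2 held 26026, 24424 and 13837, and S3 held 23945, 33424 and 4486. The first 3 populations did not overlap one another. S3 replicate 3 was far below the other S3 libraries and below every S0-Medium, S1 and S2 library, but above S0-Low. The log2 fold change from S0-Low to S3 was 3.04 ± 0.53 (edgeR adjusted p = 0.000544) and it passed the test in every alternative tried. Of its 31-base stretches, 21.1% also lie in the neighbouring gene Hcn3. Hcn3 was at 0 to 244.6 normalized counts and its count was a median of 1.30% of that of Pklr per library and at most 113%, in a Lin+ library.

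The 4 sorting steps were also tested one at a time. In the first 3 steps 0 of 16555 genes passed edgeR's adjusted p of 0.05 (0.0% higher and 0.0% lower), so no member did either. No member was called there by DESeq2, without replicate 3 or with the replicate number as a block. With the block the lowest edgeR adjusted p of a member was 0.138, for Bpgm in S1 against S0-Medium. Before adjustment, p was under 0.05 for 295 genes that went up and 244 that went down at the first step, for 278 up and 857 down at the second, and for 166 up and 501 down at the third. From S2 to S3, 3.26% of tested genes were higher and 6.09% lower, and 1 member was called: Bpgm rose 9.52-fold (log2 fold change 3.26 ± 0.42, adjusted p = 0.000408). Pklr, Hk1 and Pfkl, which rose over the whole series, had log2 values of -0.05 ± 0.49, 0.08 ± 0.31 and -0.29 ± 0.38 at this last step. Same-numbered libraries deviated together at this step, as at the first 3. With the replicate number as a block 4 members were lower in S3 than in S2: Gpi1 (-1.73, adjusted p = 0.000279), Pfkm (-1.36), Aldoa (-1.24, adjusted p = 0.0106) and Gapdh (-1.50, adjusted p = 0.00733). In that fit 11.3% of all genes were lower and 7.3% higher. Leaving out S2 replicate 3 gave 3 lower members, where 8.62% of all genes were lower and 4.8% higher, and leaving out replicate 3 everywhere gave 5, where 11.6% were lower and 7.33% higher.

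The comparison of S2 with S0-Low was added after the data had been seen, because several members levelled off at S2. There 4.37% of all tested genes were higher and 6.92% lower, and 5 members were higher by edgeR: Hk1 (1.04 ± 0.31, adjusted p = 0.0429), Pfkl (1.46 ± 0.39, 0.026), Pfkm (1.71 ± 0.43, 0.02), Bpgm (1.73 ± 0.40, 0.0115) and Pklr (3.09 ± 0.53, 0.002). No member was lower. The S0-Low libraries are shared with the comparison of S3 and S0-Low. With the replicate block the 5 calls held and Gpi1 (-0.82, adjusted p = 0.0286) and Aldoa (-0.97, 0.0387) were lower, where 7.97% of all genes were higher and 8.84% lower. Without replicate 3 there were again 5 higher members and 0 lower, where 4.35% of all genes were higher and 6.82% lower. Leaving out 1 library left 1 to 4 of the 5 calls, and the lowest number came without S2 replicate 3, where 1.75% of all genes were higher and 3.32% lower. Pklr was called in each of these and Hk1 in none (adjusted p from 0.0611 to 0.157). In edgeR's test of any difference among the 5 populations, 24.6% of all genes passed, and of the members Pfkl (adjusted p = 0.0368), Pfkm (0.019), Bpgm (1.19e-06) and Pklr (0.00219) did. Without replicate 3 there were 9 such members, where 27.7% of all genes passed. There was 1 without replicate 1, where 8.3% passed, and 1 without replicate 2, where 6.97% did. With the replicate block 8 members passed, beside 33.1% of all genes.

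**Figure D2:**
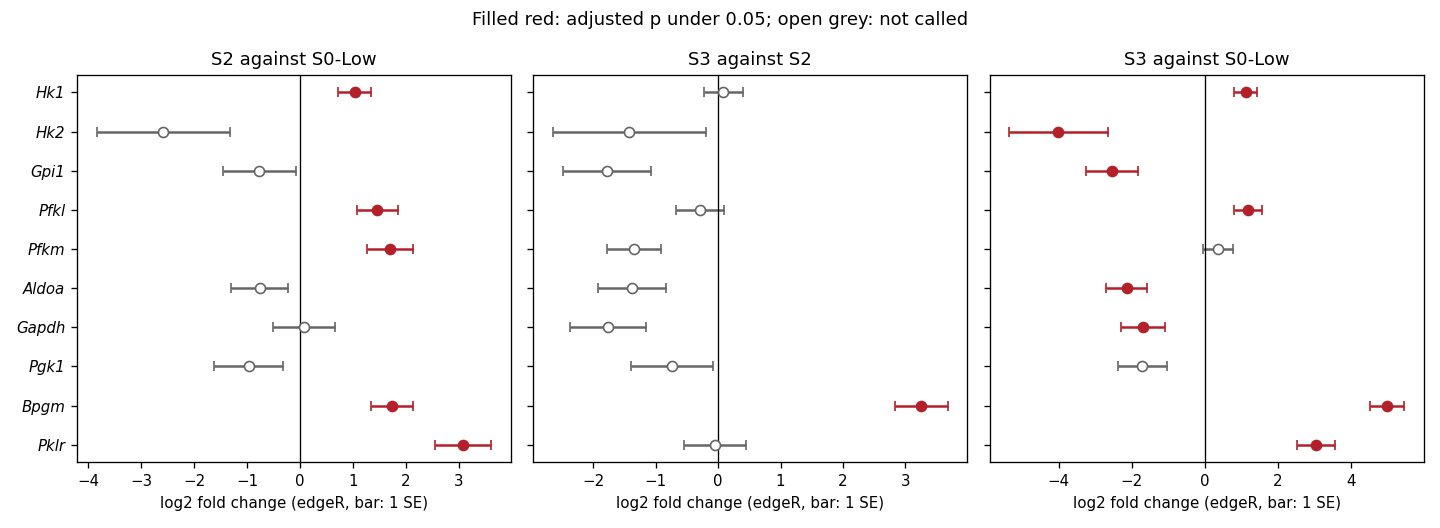
Points are edgeR log2 fold changes (x axis) of the 10 genes (y axis) with bars of 1 SE, for S2 against S0-Low, S3 against S2 and S3 against S0-Low. Filled red points have an adjusted p under 0.05: 5, 1 and 8 genes in the 3 panels. Bpgm is the only filled point of the middle panel, at 3.26.

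The ratio between isozyme genes within a library does not depend on how libraries are scaled. For each pair, log2 ratios of counts (0.5 added to each) were compared among the 5 erythroid populations by an exact permutation test over the 1401400 divisions of 15 libraries into sets of 3, with p-values adjusted over 5 pairs. Between 3 and 3 libraries the smallest exact p is 0.1.

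The balance of the hexokinase genes moved toward Hk1. The log2 ratio of Hk1 to Hk2 was 2.16 ± 0.80 (SD, n = 3) in S0-Low and 3.38 ± 1.95 in S0-Medium. S1 had 4.48 ± 1.76, S2 had 5.82 ± 0.87 and S3 had 9.32 ± 4.59. S3 ran from 5.51 to 14.42, its highest library being the one with 0 Hk2 counts, where the ratio is set by the added 0.5. Its lowest library, replicate 3, was below replicate 3 of S0-Medium (5.61), S1 (6.49) and S2 (6.83). The populations differed with an exact permutation p of 0.0146 (adjusted 0.0243), although the ranges of neighbouring populations overlapped. With populations permuted within replicate numbers the adjusted p was 0.0492. All 3 S3 libraries were above all 3 S0-Low libraries (exact two-sided p = 0.1). The difference in means was 7.16, or 6.02 with 5 counts added. Without S3 replicate 1 the difference was 4.61 with an adjusted p of 0.071, and without S0-Low replicate 1 or 2 the adjusted p was 0.0791 or 0.0784.

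The phosphofructokinase ratio went down and then up. The log2 ratio of Pfkl to Pfkm was 1.12 ± 0.51 (SD, n = 3) in S0-Low and 0.01 ± 0.57 in S0-Medium. S1 had 0.30 ± 0.41, S2 had 0.65 ± 0.43 and S3 had 1.73 ± 0.54. The ranges of S0-Low and S3 overlapped. The exact permutation p over the 5 populations was 0.00991 (adjusted 0.0243, and 0.00799 with permutation within replicate numbers). The mean of S3 was 0.61 above that of S0-Low (exact two-sided permutation p = 0.3). The adjusted p over the populations was 0.0576 without S3 replicate 3.

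The balance of the pyruvate kinase genes moved from Pkm toward Pklr. Pklr was compared with Pkm, the gene of the form used in most other tissues. Their log2 ratio was -1.09 ± 1.45 (SD, n = 3) in S0-Low and 0.46 ± 1.31 in S0-Medium. In S0-Low replicate 3 Pklr was already above Pkm, with a log2 ratio of 0.50. S1 had 2.27 ± 0.97, S2 had 3.53 ± 0.63 and S3 had 5.84 ± 1.49. Each S3 library was above each S2 library. The exact permutation p was 0.000157 (adjusted 0.000785), and the call held without any single S0-Low or S3 library. Pkm itself fell from 12327, 8128 and 1464 normalized counts in S0-Low to 327, 237.9 and 242.7 in S3 (log2 fold change -4.76 ± 0.83, edgeR adjusted p = 0.000514).

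For the remaining pairs the adjusted p was above 0.05 with all libraries. Pfkp, the platelet-type phosphofructokinase, varied so much between replicates that Pfkl over Pfkp reached an adjusted exact permutation p of 0.647. In replicate 3 Pfkp was at 113.6, 110.0 and 205.5 normalized counts in S0-Medium, S1 and S2, where the other libraries had 1420 to 2900. Leaving out replicate 3 everywhere gave an adjusted p of 0.0254. The lactate dehydrogenase genes Ldha and Ldhb gave an adjusted exact permutation p of 0.232 (0.0479 without S0-Low replicate 3 and 0.00397 without replicate 3 everywhere), and since Ldhb was at 0 in many libraries the sign of their S3 difference turned with the added count.

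**Figure D3:**
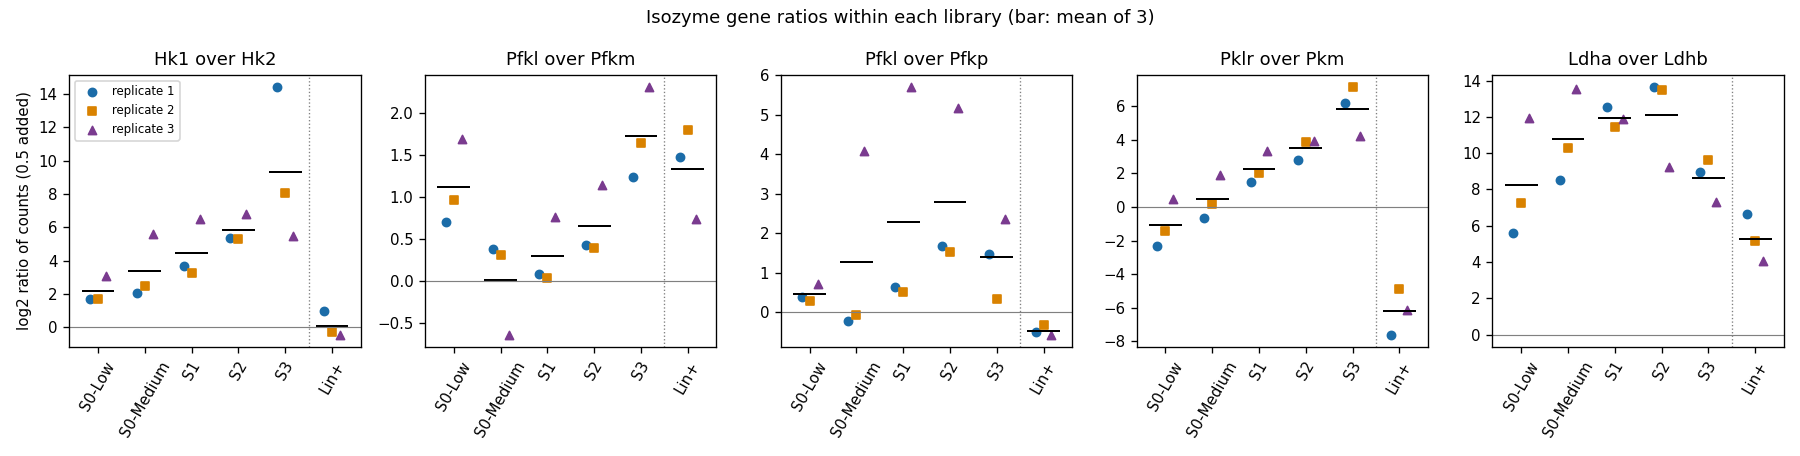
Panels plot the log2 ratio of the counts of 2 isozyme genes (y axis, 0.5 counts added) in every library of each population (x axis), with a bar at the mean of 3. The means of Hk1 over Hk2 and Pklr over Pkm climb from S0-Low to S3, to 9.32 and 5.84. Replicate 3 of Hk1 over Hk2 is lower in S3 than in S2. The mean of Pfkl over Pfkm dips to 0.01 in S0-Medium before reaching 1.73 in S3.

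Levels of different genes were compared per kb of transcript, as TMM-scaled CPM (counts relative to library size) per kb. By the median length of the annotated protein-coding transcripts, Hk1 was the highest of the 10 genes in S0-Low (642 ± 73.4 CPM per kb, SD, n = 3), ahead of Aldoa (221 ± 60.9) and Gapdh (160.3 ± 103), and in S3 Bpgm (1571 ± 827) and Hk1 (1395 ± 358) were ahead of Pklr (231 ± 165). The order depends on the length used, since the median is 613 bases for Hk1 (19 annotated transcripts) and 600 for Bpgm (4 annotated transcripts). The longest transcripts have 4278 and 2220 bases. By the longest transcript, the highest of the 10 genes in S0-Low were Aldoa (159 ± 43.9 CPM per kb, SD, n = 3) and Gapdh (144 ± 92.4), ahead of Gpi1 (102 ± 63.7) and Hk1 (91.9 ± 10.5). The SDs of Aldoa, Gapdh and Gpi1 overlapped, while those of Aldoa and Hk1 did not. In S3 the order was Bpgm (425 ± 223), Pklr (222 ± 159) and Hk1 (199.9 ± 51.3), again with overlapping SDs, followed by Gapdh (44.7 ± 8.61). Hk2 was the lowest in S3, at 1.11 ± 1.33.

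Within the hexokinases Hk1, Hk2 and Hk3, the share of Hk1 per length was 84.1% ± 6.52 (SD, n = 3) in S0-Low, 98.5% ± 0.718 in S2 and 99.3% ± 0.894 in S3 by the longest transcript, and 94.9% ± 2.24 in S0-Low and 99.8% ± 0.256 in S3 by the median length. Within Pfkl, Pfkm and Pfkp, the share of Pfkl in S3 was 56.7% ± 11.6 by the longest transcript and 30.0% ± 12.9 by the median, because the median length of Pfkp is 704 bases. No order of Pfkl and Pfkp is therefore given. Pklr made up 29.7% ± 20.6 of the pyruvate kinase genes in S0-Low, 89.7% ± 4.36 in S2 and 97.0% ± 2.97 in S3 by the median length, and the longest transcript gave 29.1%, 89.4% and 96.9%.

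In Lin+ cells 1 member passed the test against S0-Low. Besides markers of granulocytes, macrophages (Itgam, which was at 0 in all 18 libraries, aside), megakaryocytes and, at 849 to 2033 summed normalized counts, lymphoid cells, Lin+ held those of stem and progenitor cells at 20414 to 31638, beside 25372 to 33624 in S0-Low, and the part of these cells in the comparison was not tested. Pklr was at 93.7, 384 and 121.4 normalized counts in Lin+, below every S0-Low library, and was that member (log2 fold change -3.65 ± 0.61, edgeR adjusted p = 0.00698), where 0.496% of 17755 tested genes were higher in Lin+ and 0.22% lower. Hcn3, which shares sequence with Pklr, was at 105.5, 16.9 and 19.2 in the same libraries, and its part in the Pklr counts was not tested. Without Lin+ replicate 3 the value was -3.38 (adjusted p = 0.0549), and without Lin+ replicate 2 it was -4.54 (adjusted p = 0.00366). With the replicate number as a block, which pairs these libraries, Hk1 was also lower (-1.04, adjusted p = 0.0134) and Gpi1 higher (1.28, adjusted p = 0.0157), where 0.648% of all genes were lower and 1.28% higher. Without replicate 3, Pklr and Pfkm (-1.40, adjusted p = 0.0367) were lower and no member was higher, where 0.395% of all genes were lower and 0.691% higher.

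Against S3, all 10 members differed in Lin+ by edgeR, 5 higher and 5 lower, where 28.2% of all tested genes were higher and 14.1% lower. Hk2 (log2 fold change 4.89 ± 1.30, adjusted p = 0.00656), Gpi1 (3.63 ± 0.74, 0.000851), Aldoa (2.43 ± 0.57, 0.0026), Gapdh (1.99 ± 0.63, 0.0182) and Pgk1 (1.69 ± 0.64, 0.0422) were higher. Pklr (-6.69 ± 0.71, 1.89e-06), Bpgm (-5.34 ± 0.45, 2.36e-07), Hk1 (-2.15 ± 0.31, 3.94e-05), Pfkl (-1.69 ± 0.39, 0.00259) and Pfkm (-1.30 ± 0.41, 0.0176) were lower. The median of all genes was 0.69 here. With library totals it was 1.47, and Pfkm was at -0.53 (adjusted p = 0.289). Without S3 replicate 3 or without Lin+ replicate 1 there were 3 higher members, Gapdh and Pgk1 being lost. Single libraries also moved some sizes: Hk2 was at 6.43 without S3 replicate 3, Gpi1 at 4.28 without S3 replicate 1, and Pklr at -7.57 without Lin+ replicate 2 and -6.09 without S3 replicate 2. Without replicate 3 in every population all 10 were called, 5 in each direction, beside 25.7% of all genes higher and 14.2% lower. This comparison shares the S3 libraries with the comparison of S3 and S0-Low, so they are not independent.

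In the isozyme pairs Lin+ also stood apart from S3. Its log2 ratio of Hk1 to Hk2 was 0.09 ± 0.79 (SD, n = 3), below every erythroid library, and that of Pklr to Pkm was -6.22 ± 1.35. Hk3, the hexokinase of white blood cells, was at 867 to 1947 normalized counts in Lin+ and at 0 to 76.0 in the erythroid libraries. The share of Hk1 among the 3 hexokinase genes in Lin+ was 78.9% by the median length, 49.1% by the longest transcript and 35.2% by the union of exons, and that of Hk2 was 17.2%, 36.3% and 46.8%, so no order of Hk1 and Hk2 is given there.

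The rest of the pathway was followed in 4 lists of genes. Of 13 tested among 18 other glycolytic enzymes, 3 fell from S0-Low to S3 (Pkm, Ldha, Ldhb) and 1 rose (Eno3), with 9 not called, beside 22.4% of all genes lower and 13.4% higher. The median log2 fold change was -1.59 with genes at 0 in S3 set to their bound, beside -0.54 for all tested genes. Ldha, which turns pyruvate into lactate, fell from 11901, 11563 and 5145 normalized counts in S0-Low to 610, 564 and 143.4 in S3 (log2 fold change -4.44 ± 0.91, edgeR adjusted p = 0.00177). At the last step from S2 to S3 Pkm (-2.97 ± 0.76, 0.0241) and Ldha (-3.40 ± 0.87, 0.0239) fell too, although S2 replicate 3 (436) lay within the S3 range of Ldha. Ldhb was at 0 in all S3 libraries and at 243.0, 76.6 and 0 in S0-Low, so the groups overlapped (edgeR adjusted p = 0.0304). Eno3, an enolase of muscle, was at 58.7, 91.7 and 0 in S0-Low and at 1352, 460 and 88.2 in S3, with overlapping ranges (3.63 ± 1.25, adjusted p = 0.0335). Tpi1, Pgam1 and Eno1 were not called. Hkdc1, Gapdhs, Pgk2 and Pgam2 were among those with too few counts to be tested, Pgk2 being at 0 in all 18 libraries.

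Among 12 genes that control phosphofructokinase and glycolysis, 3 fell (Pfkfb3, Tigar, Egln3) and 2 rose (Pfkfb1, Arnt) from S0-Low to S3 by edgeR, shares near those of all genes (22.4% lower, 13.4% higher). Pfkfb3, which makes the phosphofructokinase activator fructose-2,6-bisphosphate, was at 4734, 2729 and 2978 normalized counts in S0-Low, 189.5, 187.4 and 117.4 in S2, and 0 in all S3 libraries, so, against a floor of 3 counts per library, it was at least 610-fold higher in S0-Low and at least 28.9-fold higher in S2. Tigar, which breaks that activator down, was at 425, 578 and 31.9 in S0-Low and at 0 in S3, at least 60.5-fold higher in S0-Low. Egln3, an oxygen-sensing hydroxylase, was at 1723, 1609 and 797 in S0-Low and at 0, 1.44 and 1.84 in S3. Pfkfb1, of the same family as Pfkfb3, went from 190.9, 232.1 and 5.31 to 1104, 1052 and 1706 (3.16 ± 0.85, adjusted p = 0.00985), with no overlap. Arnt, the partner of the hypoxia-inducible factors, rose from 2086, 1879 and 3737 to 8351, 7066 and 7434 (1.57 ± 0.36, adjusted p = 0.00392).

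The pentose phosphate pathway branches off at glucose-6-phosphate and makes NADPH. Of its 7 genes, Taldo1 (transaldolase) rose from 3923, 4175 and 2040 normalized counts in S0-Low to 17131, 19886 and 13828 in S3 (log2 fold change 2.32 ± 0.34, edgeR adjusted p = 0.000139), and Pgls fell (-2.19 ± 0.56, 0.00732). G6pdx, Pgd, Rpia, Rpe and Tkt were not called. Of 10 tested among 11 genes for the fate of pyruvate and lactate, 3 rose and 0 fell, where 13.4% of all genes were higher and 22.4% lower. Bsg, which carries the lactate transporters to the membrane, rose from 3985, 3379 and 2423 to 22632, 34006 and 35911 (3.24 ± 0.29, adjusted p = 3.62e-06). Slc16a1, the lactate transporter itself, rose by 1.55 ± 0.39 (adjusted p = 0.00651). It went from 4332, 5725 and 2917 normalized counts to 9199, 7510 and 21263, with S3 replicate 3 far above the other S3 libraries. Mpc2, a part of the mitochondrial pyruvate carrier, rose by 2.51 ± 0.44 (adjusted p = 0.000513). Pdk1, which switches off pyruvate dehydrogenase, fell from S2 to S3 (-1.61 ± 0.29, adjusted p = 0.00364), a step at which Mpc2 (1.98 ± 0.43, 0.01) and Bsg (1.53 ± 0.28, 0.0036) rose, beside 3.26% of all genes higher and 6.09% lower. Pdk4 had too few counts to be tested.

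**Figure D4:**
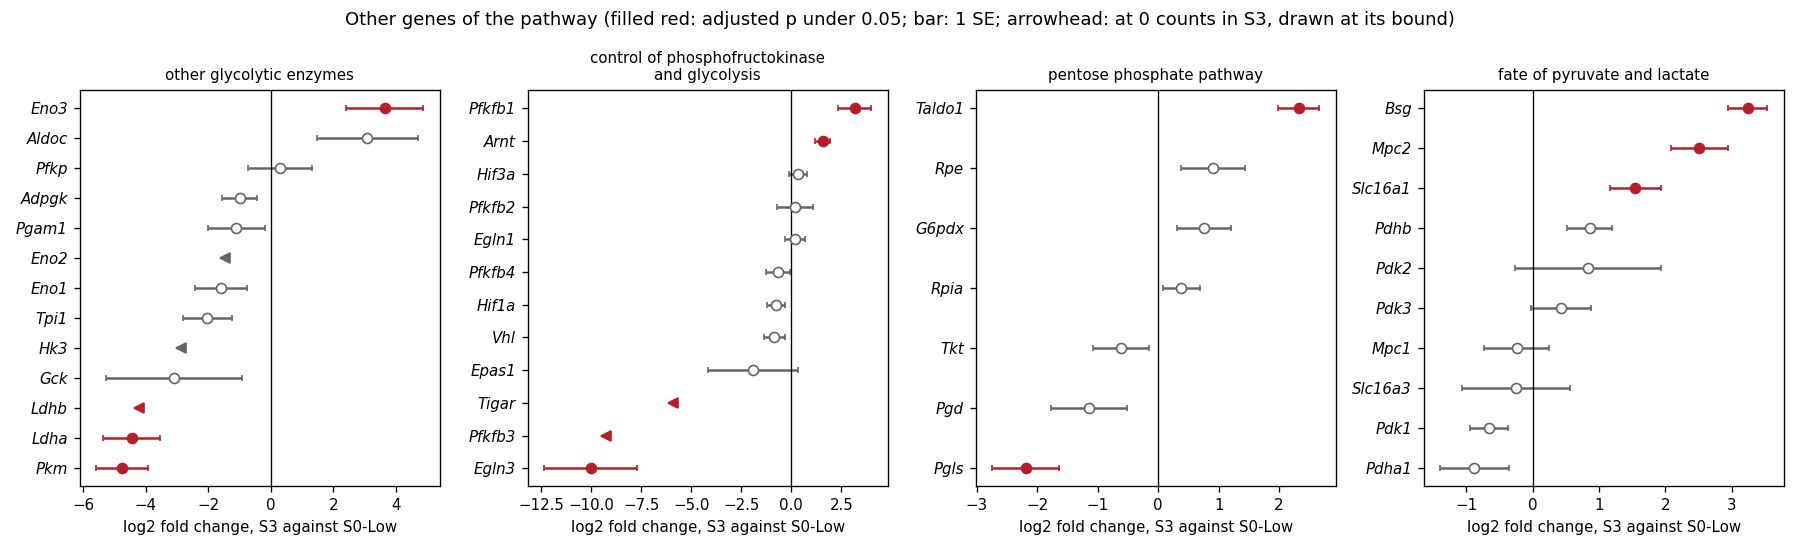
Log2 fold changes of S3 against S0-Low (x axis) for the tested genes of the 4 pathway lists (y axis), with bars of 1 SE from edgeR and filled red points for an adjusted p under 0.05. Genes at 0 counts in S3 are drawn as arrowheads at the bound given by 3 counts per library. Pkm and Ldha lie below -4, Bsg and Pfkfb1 above 3.

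The genes whose pattern was most like that of a member were looked up by Pearson's r of log2(CPM + 0.5) over the 15 erythroid libraries among 10273 genes, as a description. For Bpgm they were Kif4 (r = 0.992), Mkrn1 (0.987) and AI848100 (0.986). For Pklr they were Aqp3 (0.926), Fam82a2 (0.902) and Ints6 (0.901), and for Hk1 Ccrn4l (0.934), Lars (0.927) and Psmc2 (0.921). Hk2 was most like Id1 (0.965), Slc39a10 (0.957) and Myo5a (0.939), Pfkl had Rfc1 (0.950) and Uhrf1 (0.939) among its most like genes, and Pfkm was most like Atp7b (0.914), Topbp1 (0.902) and Ank2 (0.901). The libraries share their population and their place in the sort. How many genes reach values of this size was not counted, and what sets these values was not tested.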

How the data were processed

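The 18 libraries hold RNA labelled with 4sU (4sU-seq). The authors quantified reads of stranded libraries, made with 14 PCR cycles and no molecular identifiers, with Kallisto (0.43.0 in the submitters' processing notes, which name GRCm38) and deposited whole-number counts per gene, neither normalized nor pooled. The transcript set and the treatment of introns are not given in the sources used here. Kallisto shares reads among near-identical sequences by estimation, so 31-base stretches of each member were searched for in the exons of all other genes (GENCODE vM1).

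Groups and replicate numbers came from the labels. Counts were analysed with edgeR 4.0.16 in R 4.3.3 (TMM, filterByExpr, quasi-likelihood F test, Benjamini-Hochberg adjustment over all genes), with 15 libraries for erythroid comparisons (16555 genes) and 18 for those with Lin+ (17755), and with Python 3.11.15. Standard errors are the log2 fold change divided by the square root of F. A fold is the ratio of group means of normalized counts. A floor of 3 counts corresponds to between 0.0739 and 0.317 CPM, depending on the library's total, and covers counting error only. Counts were simulated with the sizes of the 15 erythroid libraries and with changes in S3 only (16009 genes tested). In S3 against S0-Low, 1.45% of 69 genes changed 2-fold, 30.0% of 70 changed 4-fold and 73.8% of 61 changed 16-fold were recovered. All other genes were left unchanged, whereas 13.4% of genes were higher and 22.4% lower in the data. With so few changed genes the adjustment is stricter, so these shares do not give the recovery in the data.

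The members and gene lists were chosen with earlier results of these data known. Named were all 10 members and, of the 4 lists, the genes of the isozyme pairs, those with an adjusted p under 0.05 in S3 against S0-Low or S2 (up to 4 per direction and list) and those not detected. For 6 members the 3 most like genes with at least 100 normalized counts were named. Some genes that this rule names are not reported here. Alternatives were DESeq2 1.42.0, RLE factors, library totals, other filters, globin genes left out, other sets of libraries, the replicate block, each replicate left out, other added counts for ratios and other lengths. Added after seeing the data were S2 against S0-Low and leaving out replicate 3 everywhere. The correlation of same-numbered libraries' deviations was above 0.1 in all 3 pairs for the 4 steps (0.17 to 0.55), Lin+ against S0-Low and S2 against S0-Low, and there the numbers were taken to pair the libraries. It was not for S3 against S0-Low (0.081 to 0.131) or Lin+ against S3 (0.091 to 0.160).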

Additional observations from a re-analysis of the deposited data

How the results depend on the processing

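Bpgm, Pklr and Aldoa kept their direction and call in S3 against S0-Low under every alternative tried, and Bpgm also in S3 against S2. The number of members higher in S3 than in S0-Low, 4, was 2 with library totals and 2 with the 6 libraries compared alone (3 to 4 without 1 library), and the 4 lower were 2 to 4 without 1 library. In S3 against S2 the count of lower members, 0, was 1 with all 18 libraries, 4 with library totals, 3 with no filter, 1 with a minimum of 10 counts in every library, 2 with DESeq2, 5 without replicate 3 in every population and 0 to 3 without 1 library. With the replicate block, which pairs same-numbered libraries, it was 4. In Lin+ against S0-Low the block gave 1 higher member where there had been 0 and 2 lower where there had been 1. DESeq2 and leaving out replicate 3 in every population also gave 2 lower, and leaving out 1 library gave 0 to 1. Against S3, the 5 members higher in Lin+ were 3 to 5 without 1 library. In S2 against S0-Low, the 5 higher members numbered 3 with RLE factors, with library totals and with a minimum of 10 counts, and 2 with the 6 libraries alone and 1 to 4 without 1 library, while 1 lower member appeared with no filter, 1 with the 6 libraries alone and 2 with the replicate block. Members that differed among any of the 5 populations, 4, were 8 with no filter, 8 with the replicate block, 8 with DESeq2, 9 without replicate 3 and 1 to 9 without 1 replicate number. The block left the other counts within 1.5 times, though not always with the same members. For S3 against S0-Low the numbers were not taken to pair the libraries, since not every correlation passed 0.1 (0.081 to 0.131). With the block in that comparison, Hk2 was at -3.10 (edgeR adjusted p = 0.0713) and no longer passed. Pgk1 was at -1.64 (edgeR adjusted p = 0.00834) and did pass. The share of all genes called was set beside only some of these counts, not those with library totals, RLE factors, other filters or DESeq2. Whether the members differed there from genes in general was not tested. With library totals the median log2 value over all genes in S3 against S2 was -0.82, beside -0.31 with TMM. Before adjustment, edgeR's p was under 0.05 for 4742 lower and 722 higher genes, beside 2894 and 1484 with TMM. The causes of the shifts listed here were not tested.

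Small values changed sign. Pfkm in S3 against S0-Low was -0.43 with library totals and -0.12 to 0.64 without 1 library. Hk1 in S3 against S2 was -0.42 with library totals, -0.0068 with a minimum of 10 counts and -0.13 to 0.23 without 1 library. Pklr in S3 against S2 was 0.0069 with RLE factors and with DESeq2, 0.19 without replicate 3 and -0.59 to 0.41 without 1 library. With S1, S2 and S3 only, the difference in log2 ratio between S3 and S1 was 4.84 for Hk1 over Hk2 (adjusted exact permutation p = 0.147), 1.44 for Pfkl over Pfkm and 3.57 for Pklr over Pkm (both 0.0536), -0.90 for Pfkl over Pfkp and -3.33 for Ldha over Ldhb. The difference between S3 and S0-Low (7.16, 0.61, 0.93 and 0.38 for Hk1 over Hk2, Pfkl over Pfkm, Pfkl over Pfkp and Ldha over Ldhb) ran, without 1 library, from 4.61 to 9.07, 0.33 to 0.90, 0.44 to 1.45 and -0.95 to 2.21 for these in turn. Without replicate 3 the S3 and S0-Low difference was 0.57 for Pfkl over Pfkp and 2.88 for Ldha over Ldhb, and adding 5 counts gave -1.77 for the latter. The share of Hk1 among hexokinase genes was 94.9% by the median length, 84.1% by the longest transcript and 74.5% by the union of exons in S0-Low, and 99.8%, 99.3% and 98.8% in S3. That of Pfkl among phosphofructokinase genes was 18.4%, 44.4% and 49.9% in S0-Low, and 30.0%, 56.7% and 61.1% in S3. In simulated data, in which far fewer genes were changed than passed the test here, few 2-fold changes were recovered. The recovery in these data is therefore not known, and a member that was not called may still have changed by that much.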
